A study of Homo sapiens with 4 samples.

Results

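The Arp8 KO culture was set against the culture labelled Arp8 OE, 2 of the 4 cultures of Nalm-6 cells in the series, to ask which transcripts differ between cells that lack Arp8 and cells labelled as carrying an excess of it. Each culture was measured on 1 array. The protocol gave heme at 20 uM for 12 hours, but 1 label field gave no heme for Arp8 KO, as described below. The comparison was the level on the Arp8 KO array minus the level on the Arp8 OE array, taken over the 22219 of 41000 probes that were well above background on both arrays, which covered 11299 of the 18203 genes with a named probe. More than 2-fold lower in Arp8 KO were 26% of the probes of glycolysis and hypoxia genes, 26.5% of those of ATF4 targets, 17.5% of those of lipid synthesis genes and 15.9% of those of B-lineage genes, against 2.48% of all probes, and the cystine carrier SLC7A11. More than 2-fold higher were 30.0% of the probes of p53 targets, against 0.999% of all probes, together with SULF2, SOCS2, CD86 and CD33. For glycolysis and hypoxia genes the list median was -0.62 for wild type (WT) minus Arp8 OE and -0.05 for Arp8 KO minus WT. There Arp8 OE, and not Arp8 KO, lay apart from WT by the median. For ATF4 targets these medians were -0.26 and -0.24. The lists were chosen with earlier results of these data known. With 1 array on each side there was no replicate and no test, so every difference below describes these 2 arrays.

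Nalm-6 is a human pre-B leukemia line. By genotype the cultures were Arp8 KO, Arp8 OE (overexpression), Arp5 KO and wild type (WT), all from this line, and the protocol gave heme at 20 uM for 12 hours to cause oxidative stress. The titles, the protocol and the series design gave heme for every culture, and the source names gave heme for Arp8 KO and for Arp8 OE. The treatment field, in contrast, gave no heme for both knockouts. If that field holds, the genotype and the heme treatment cannot be told apart between Arp8 KO and Arp8 OE. Arp8 KO is a line in which the gene was disrupted. The study cites its own earlier report that cells died when Arp8 was knocked out conditionally. Whether this bears on the levels below was not tested. How the Arp8 OE culture was made, and whether it began from WT or from Arp8 KO cells, is not given in the sources used here.

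Arp8 (gene ACTR8) and Arp5 (gene ACTR5) are actin-related proteins and subunits of INO80, a complex that uses ATP to slide and exchange nucleosomes. INO80 acts in transcription, in DNA replication and in the repair of broken DNA. Heme binds the repressor BACH1 and takes it off the antioxidant response elements, which lets NRF2 turn on HMOX1 (heme oxygenase), the ferritin genes and genes of glutathione supply. Hypoxia genes are turned on by HIF factors, amino acid and other stresses act through ATF4, and DNA damage acts through p53.

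A level is the log2 processed signal of a probe relative to the 75th percentile of its array, so a level of 0 is that percentile, and levels were compared between arrays and never between probes. The 75th percentiles lay between 647.4 and 739.6 signal units, and 55.8% to 57.4% of probes were well above background on an array. No spot was saturated. Over the 184 probes printed 10 times that were well above background on Arp8 KO, the median SD between spots was 0.06 on the log2 scale. The technical SD of a difference that follows from both arrays was 0.08, which covers spots of 1 array and not the spread between cultures. The number of arrays limits the precision.

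ACTR8 did not stand out on the array labelled Arp8 OE. Its first probe read -1.02 on WT, -1.11 on Arp5 KO, -1.01 on Arp8 OE and -1.55 on Arp8 KO. Its second probe read 0.25, 0.01, 0.23 and -0.44 in the same order. Both probes were lowest on Arp8 KO, by 1.46-fold and 1.59-fold against Arp8 OE, and Arp8 OE read nearly the same as WT on both. A transcript that still carries the probed part would give signal in a disrupted gene, and the disrupted part of ACTR8 is not given in the sources used here. The probes therefore gave no sign of excess ACTR8 in the culture labelled Arp8 OE. A construct without the probed part would not be seen by them. ACTR5 read -4.40 on Arp5 KO and between -0.41 and -0.13 on the other arrays.

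HMOX1, the gene that the study follows, was low on Arp8 KO and on Arp8 OE. It read -0.51 on WT, -3.48 on Arp5 KO, -2.56 on Arp8 OE and -3.42 on Arp8 KO. Arp8 KO was 1.81-fold under Arp8 OE, and all 10 spots of the probe pointed that way, with a mean difference of -0.86 ± 0.12 (SD over spots, n = 10 spots of 1 probe). The difference stayed short of 2-fold. GPX3, a secreted glutathione peroxidase, read -2.19 on WT and -4.26 on Arp8 OE and was not well above background on either knockout, which puts Arp8 KO under Arp8 OE by at least 1.87-fold. GSTM3, a glutathione transferase, was not well above background on Arp8 OE or Arp8 KO by any of its probes. On WT 1 of its probes read -0.51 and was well above background, but its spot there lay next to one that was bright on that array alone. The other GSTM3 probes were not well above background on WT.

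Over all probes, 222 were more than 2-fold higher in Arp8 KO than in Arp8 OE (0.999%) and 550 were more than 2-fold lower (2.48%), together 772 (3.47%), a ratio of 2.48 lower probes for each higher one. Past 4-fold these were 15 (0.0675%) and 60 (0.27%), together 75 (0.338%). With normexp, a model-based background correction in place of the scanner's own, 75 probes were higher and 243 lower, and with no filter on low signal 1201 and 1996. The higher probes named 149 genes and the lower ones 347, and 60 and 147 probes had no gene symbol. The median difference over all 22219 probes was 0.02 with an SD of 0.44. Most of the large differences were at low signal: 81.1% of the higher and 72.0% of the lower probes lay under the median level. Probes printed next to a spot whose signal on a single array exceeded that on the remaining 3 by over 2-fold (here called beside a bright spot) made up 17.6% of the higher and 23.3% of the lower probes, against 12.9% of all. Their part in the differences was not tested. The 2-fold limit fell between CYP27B1 at 1.0011 and SHLD2 at 0.9998 on the higher side, and between ABHD4 at -1.0009 and FTH1 at -0.9985 on the lower side.

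**Figure D1:**
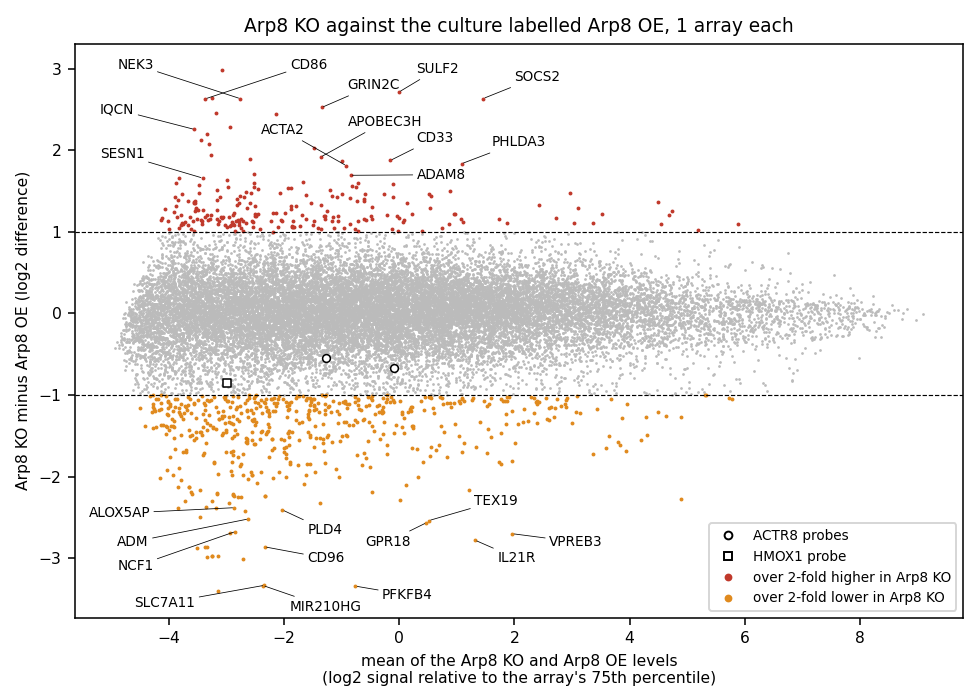
Log2 difference, Arp8 KO minus the array labelled Arp8 OE (vertical axis) against the mean level of both arrays (horizontal axis, log2 signal relative to the 75th percentile), 1 point for each of 22219 probes. The 222 red and 550 orange points lie past the dashed 2-fold lines, PFKFB4, MIR210HG and SLC7A11 stand at about 10-fold, and the ACTR8 and HMOX1 probes (open symbols) lie between the lines.

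Among genes higher in Arp8 KO, SULF2, a sulfatase that trims heparan sulfate on the cell surface, differed most under the rule for named genes. It read -2.76 on WT, -2.14 on Arp5 KO, -1.36 on Arp8 OE and 1.35 on Arp8 KO, which put Arp8 KO 6.55-fold over Arp8 OE. SOCS2, an inhibitor of cytokine receptor signalling, read -0.66, 1.71, 0.14 and 2.77 in that order, 6.20-fold higher, with Arp5 KO also over WT. CD86, a ligand that costimulates T cells, read -4.81, -4.55, -4.69 and -2.06, so that only Arp8 KO left the low level of the other arrays. Another CD86 probe stayed near background on every array. NEK3, a kinase of the NIMA family, read -4.46, -2.78, -4.08 and -1.44, again with Arp5 KO between.

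The remaining genes of the higher set were 3.15-fold to 5.75-fold over Arp8 OE. GRIN2C, a subunit of the NMDA receptor, read -2.61 on Arp8 OE and -0.09 on Arp8 KO, and IQCN read -4.68 and -2.43. APOBEC3H, a cytidine deaminase that restricts retroviruses, was 3.77-fold higher. CD33, a sialic acid binding receptor of myeloid cells, was higher by 1.87 on each of its 2 probes. ACTA2, the actin of smooth muscle, read -1.82 on Arp8 OE and -0.01 on Arp8 KO. ADAM8, a membrane metalloprotease, was 3.23-fold higher than in Arp8 OE, but its Arp5 KO level of -0.18 was close to that of Arp8 KO. PHLDA3 and SESN1 of the same set are targets of p53 and are described with that list.

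Among genes lower in Arp8 KO, PFKFB4, MIR210HG and SLC7A11 were each about 10-fold under the culture labelled Arp8 OE, and the other arrays placed them differently. PFKFB4, an enzyme that sets the rate of glycolysis, read -2.67 on WT, -2.31 on Arp5 KO, 0.91 on Arp8 OE and -2.43 on Arp8 KO, so that Arp8 OE alone was high. MIR210HG, the host transcript of a hypoxia-induced microRNA, read -3.12, -3.30, -0.70 and -4.03, and here too Arp8 OE was high. Its spot on the WT array lay beside a bright spot. SLC7A11, the light chain of the exchanger that brings cystine into the cell, read -0.68, -2.74, -0.68 and -4.01, with Arp8 OE level with WT and Arp8 KO lowest. A second SLC7A11 probe was not well above background on Arp8 KO and gave a difference of at least 9.57-fold.

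The other genes of the lower set were 5.21-fold to 7.27-fold under Arp8 OE. VPREB3, a protein of B-cell precursors, read 3.0 on WT, 1.79 on Arp5 KO, 3.31 on Arp8 OE and 0.61 on Arp8 KO, a 6.50-fold difference. IL21R, a cytokine receptor, read 2.38, 1.60, 2.70 and -0.08, which was 6.87-fold. CD96, a receptor of the immunoglobulin superfamily, read -0.31, -1.20, -0.90 and -3.77, which was 7.27-fold. In each of these Arp8 KO was the lowest array and Arp5 KO was below WT. GPR18 was 5.92-fold lower and TEX19, a gene known from the testis, 5.81-fold lower, both with Arp5 KO between WT and Arp8 KO. PLD4 and ALOX5AP, the latter needed for leukotriene synthesis, were 5.31-fold and 5.21-fold lower. NCF1, a subunit of the phagocyte oxidase, was 6.38-fold lower, but NCF1 has near-identical pseudogenes, so the source of its signal is uncertain. ADM, which encodes the vessel-dilating peptide adrenomedullin, was 5.73-fold lower and is described with the hypoxia genes.

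**Figure D2:**
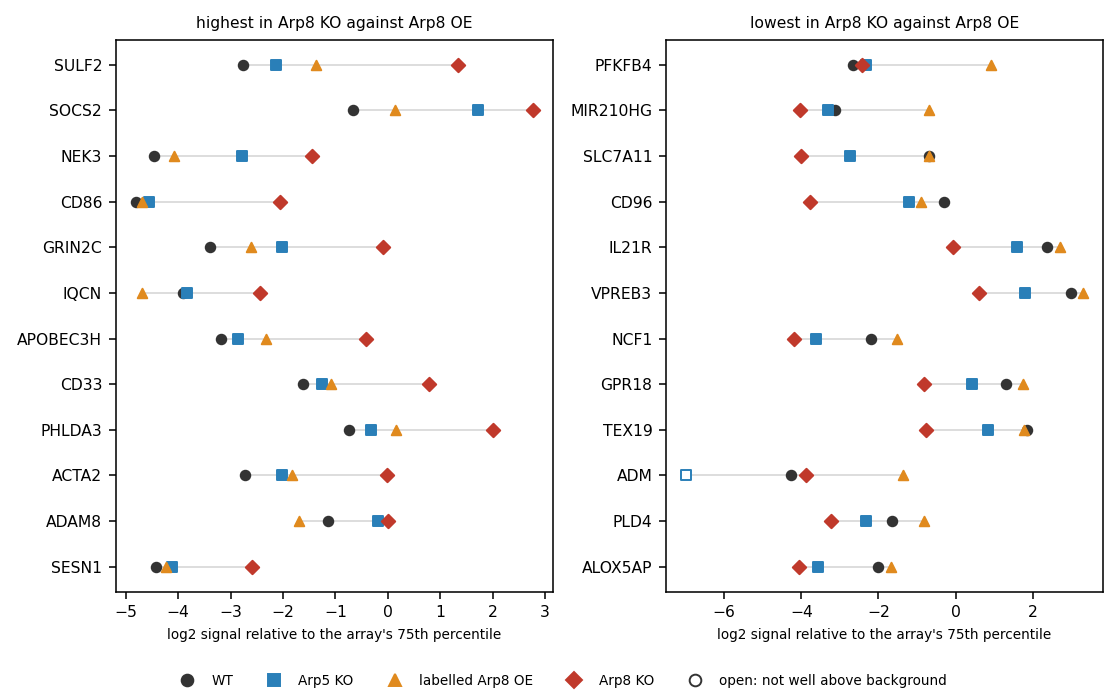
Levels of the 12 highest and 12 lowest genes by Arp8 KO minus Arp8 OE on all 4 arrays (log2 signal relative to the 75th percentile, 1 probe per gene, open symbols not well above background). The WT symbols lie by Arp8 OE for SLC7A11, VPREB3 and TEX19 and by Arp8 KO for PFKFB4, MIR210HG and ADM.

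Genes with more than 1 probe allowed a difference to be read again on the same array, although such probes share the RNA sample. Of 4094 genes with several probes on both arrays, 170 had at least 1 probe past 2-fold, and none of these had probes past 2-fold in opposite directions. All probes had the same sign in 144 of the 170. In 8 genes every probe was more than 2-fold higher: SOCS2, CD33, SESN1, ZDHHC11, ZMAT3, DIMT1, KCNJ12 and DUSP2. With normexp background correction at least 1 probe of SESN1, ZMAT3, DIMT1, KCNJ12 and DUSP2 fell under 2-fold, at 0.66 to 0.99, and 1 of DUSP2 did with cyclic loess, at 0.97. DIMT1, a methyltransferase of ribosomal RNA, was higher by 1.16 to 1.19 on its 3 probes. ZDHHC11, a palmitoyltransferase gene, was higher by 1.29 and 1.41, but its Arp5 KO levels of 1.28 and -0.11 were as high as those of Arp8 KO, 1.18 and -0.14.

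In 49 genes every probe was more than 2-fold lower. By the smaller of their differences these were led by NCF1, ALOX5AP, PLD4, CD96 and CREB5. CREB5, a transcription factor of the CREB family, was lower by 1.95 and 1.91 on the log2 scale on its 2 probes, with Arp5 KO at -2.77 and -1.77 and Arp8 KO at -3.37 and -2.05. CPM, a membrane carboxypeptidase, was 3.64-fold and 4.26-fold lower, and QPRT, an enzyme of NAD synthesis, 3.13-fold and 3.28-fold lower. CCDC88B was 3.0-fold and 3.05-fold lower. DEPP1, a target of FOXO factors, was 2.90-fold and 2.95-fold lower, and for this gene Arp5 KO read below Arp8 KO on both probes.

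A further 1316 probes were well above background on Arp8 KO and not on Arp8 OE, and 672 on Arp8 OE and not on Arp8 KO. For these the difference is a bound, set against the lowest level that counted as well above background on the other array. The probe's own level there was used where it was higher. That lowest level was -5.17 on Arp8 KO and -4.81 on Arp8 OE. Both shares below thus rest on unequal limits and cannot be compared directly. The bound passed 2-fold for 176 of the first (13.4%) and for 366 of the second (54.5%). NRP1, a coreceptor of VEGF and semaphorins, was at least 5.45-fold higher in Arp8 KO by 1 of its 3 probes, and the other 2 were not well above background on either array. NECAB2 was at least 5.38-fold, DNM3OS at least 4.14-fold and HCG26 at least 3.93-fold higher. For UBE3C, a ubiquitin ligase, 1 probe gave at least 3.72-fold, but the other 2 probes differed by 0.01 and 0.74 on the log2 scale. On the lower side, TOX2 was at least 10.4-fold, ROPN1B at least 8.39-fold, CHAT at least 6.91-fold and SLC22A3 at least 6.85-fold lower. The SLC22A3 probe lay beside a bright spot on the Arp5 KO and Arp8 KO arrays, and ROPN1B and CHAT were not well above background on WT either.

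The WT and Arp5 KO arrays, which the comparison did not use, showed for part of the probes which of the 2 cultures departed from the rest. Of the 208 higher probes that were well above background on all arrays, WT lay within 2-fold of Arp8 OE only for 133 (63.9%) and of Arp8 KO only for 4. Of the 512 lower probes, WT lay within 2-fold of Arp8 OE only for 205 and of Arp8 KO only for 90 (17.6%). Arp5 KO was placed differently: it went with Arp8 OE only for 85 and with Arp8 KO only for 24 of the higher probes, and for 130 and 137 of the lower ones. WT lay within 2-fold of both cultures on 66 higher (31.7%) and 189 lower probes (36.9%). Arp5 KO did so on 96 (46.2%) and 228 (44.5%), its largest class each way. On those probes the array placed does not show which culture departed. By the WT counts, the higher probes were mostly probes on which Arp8 KO left the WT level. Without probes beside a bright spot, 40 lower probes had WT with Arp8 KO only and 174 with Arp8 OE only, and for Arp5 KO these were 82 and 109.

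**Figure D3:**
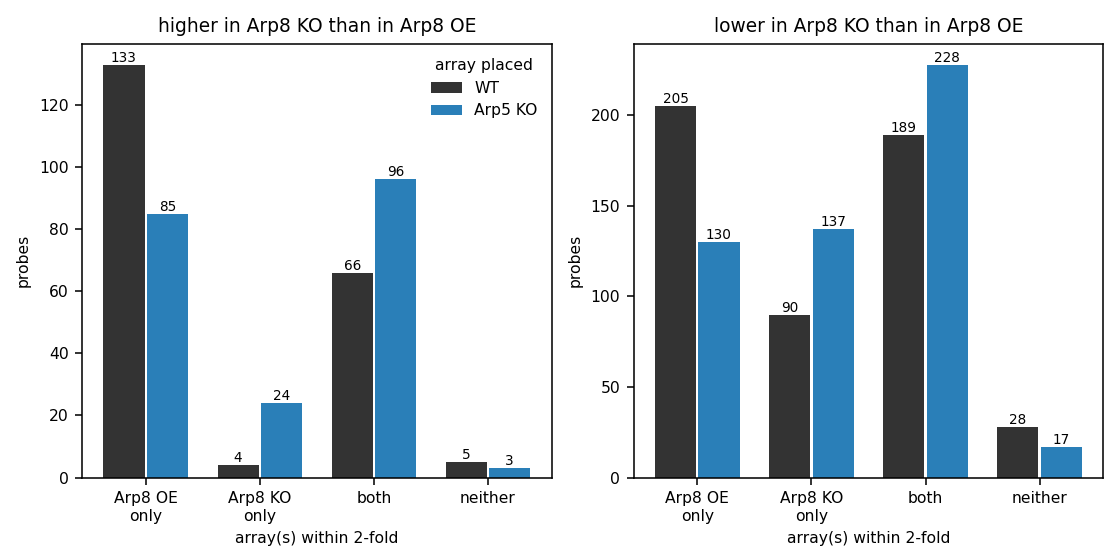
Number of probes past 2-fold between Arp8 KO and Arp8 OE by whether the WT array (black) or the Arp5 KO array (blue) lay within 2-fold of Arp8 OE only, Arp8 KO only, both or neither. The left panel holds the 208 higher and the right panel the 512 lower probes, and the WT bars for Arp8 OE only (133 and 205) exceed those for Arp8 KO only (4 and 90).

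On 82 of the higher probes Arp8 KO was more than 2-fold over each of the 3 other arrays, and on 125 of the lower probes it was more than 2-fold under each. Arp8 OE was more than 2-fold over each of the 3 others on 74 probes and under each on 4. The 4 probes of the last kind were those of ZDHHC14 and HGSNAT and 2 with no gene symbol. Of the 74 probes with Arp8 OE on top, 47 (63.5%) lay beside a bright spot, against 25.6% and 15.2% of the probes with Arp8 KO highest and lowest, and without them 27, 61 and 106 probes were left. The genes farthest apart among probes not beside a bright spot are named here after their values were seen. With Arp8 OE on top these were PFKFB4, ELFN2, BNIP3, PHACTR1, DDIT4, STC2 and BNIP3L. With Arp8 KO at the bottom they were CD96, SUSD3, BTBD6, PTGER2 and LCK. LCK, a kinase of antigen receptor signalling, read -0.09 on WT, -0.71 on Arp5 KO, -0.63 on Arp8 OE and -2.60 on Arp8 KO. BTBD6 fitted neither picture: it read 3.56 on WT, 3.22 on Arp5 KO, -0.49 on Arp8 OE and -2.43 on Arp8 KO.

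The gene lists below are read against 0.999% of all probes higher and 2.48% lower, and against a median of 0.02 over all probes. They were chosen with earlier results of these data known, so a share above that of all probes is no independent support.

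**Figure D4:**
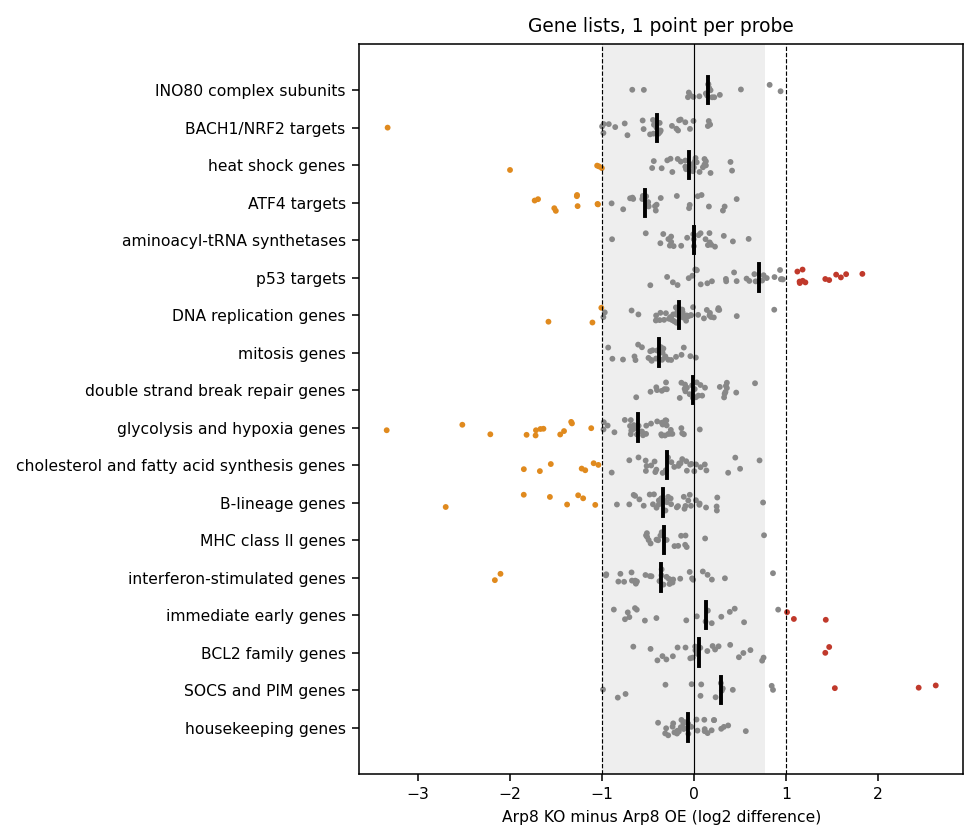
Arp8 KO minus Arp8 OE (log2, horizontal axis) for each probe of 18 gene lists, with the median of each list as a black bar and the central 95% of all probes, from -0.99 to 0.77, in grey. The p53 list lies to the right with a median of 0.71, and the glycolysis and hypoxia list lies to the left with a median of -0.61.

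Genes of glycolysis and of the hypoxia response were lower in Arp8 KO in part. Of 50 probes for 29 genes, 13 probes were more than 2-fold lower (26%), none was more than 2-fold higher, 49 were below 0, and the median was -0.61. The 13 probes named 9 genes. PFKFB4 is given above. BNIP3, a mitochondrial protein that promotes mitophagy, read 2.39 on WT, 2.26 on Arp5 KO, 4.23 on Arp8 OE and 2.51 on Arp8 KO. Its relative BNIP3L read 0.45, 0.69, 2.08 and 0.74 on 1 probe and was lower by 1.33 and 1.64 on the log2 scale on its probes. VEGFA, the growth factor of blood vessels, was lower on 4 probes, by 1.45, 1.67, 1.82 and 2.21. ENO2, a glycolytic enolase, read -1.14, -1.38, -0.07 and -1.39. In these genes the array labelled Arp8 OE was high while the others lay together. ADM read -4.28 on WT, -1.36 on Arp8 OE and -3.88 on Arp8 KO, and was not well above background on Arp5 KO. P4HA2, a collagen prolyl hydroxylase, read 1.42 on WT, 1.34 on Arp5 KO, 2.24 on Arp8 OE and 0.83 on Arp8 KO. ANKRD37, whose ankyrin protein is known as a hypoxia target, read -0.28, -0.29, 0.64 and -1.07, below WT on Arp8 KO and above it on Arp8 OE. PFKFB3, a relative of PFKFB4, was past 2-fold on 1 of its 4 probes, at -1.12, with the others at -0.75 to -0.98. This call was lost at -0.56 with normexp background correction and at -0.96 in the mean over its probes. The glycolytic genes LDHA and PGK1, at -0.11 to -0.14 and -0.26 to -0.30, and TPI1 at 0.06, differed little.

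Of the 12 lower probes in this list that were well above background on all arrays, Arp8 OE was more than 2-fold over each other array on 8, and Arp8 KO was more than 2-fold under each other array on none. Over the list the median of WT minus Arp8 OE was -0.62 and that of Arp8 KO minus WT was -0.05. Of the 13 probes, 1 lay beside a bright spot.

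The core of the hypoxia response element, ACGTG, was looked for in the RefSeq promoters of this list, from 250 bases before to 50 after the gene start, on both strands. The motif was chosen after the values were seen. It was in 12 of 28 promoters of the list (42.9%) and in 21.6% of all 27305 promoters, and in 3 of the 7 promoters at hand for genes past 2-fold: ENO2, BNIP3 and ANKRD37. CACGTG holds the motif on both strands and counts as 2 matches. The 250 bases before the start of ANKRD37 (GRCh38.p14, chr4:185396591-185396840, plus strand, 3 matches) and of BNIP3 (chr10:131981924-131982173, minus strand, 2 matches) are shown because these genes have more than 1 match, with the matches in capitals and the sequence running toward the gene start.
ANKRD37: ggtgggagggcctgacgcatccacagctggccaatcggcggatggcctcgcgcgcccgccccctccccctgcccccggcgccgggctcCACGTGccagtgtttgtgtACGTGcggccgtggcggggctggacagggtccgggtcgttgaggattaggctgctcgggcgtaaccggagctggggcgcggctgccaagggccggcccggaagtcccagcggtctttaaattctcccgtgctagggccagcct
BNIP3: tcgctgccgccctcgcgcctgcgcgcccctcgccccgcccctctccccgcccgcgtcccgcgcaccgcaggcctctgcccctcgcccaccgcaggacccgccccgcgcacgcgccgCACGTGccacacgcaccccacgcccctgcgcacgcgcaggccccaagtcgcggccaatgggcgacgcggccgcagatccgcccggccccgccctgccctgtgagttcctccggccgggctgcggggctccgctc
The matches began 162 to 143 bases before the start in ANKRD37 and 134 and 133 bases before it in BNIP3. Such a match describes the letters of the promoter and is no measure of binding.

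Targets of ATF4, the factor of the integrated stress response, were lower in part as well. Of 34 probes for 23 genes, 9 probes of 7 genes were more than 2-fold lower (26.5%), none was more than 2-fold higher, and the median was -0.53. DDIT4, an inhibitor of mTOR signalling that also responds to hypoxia, read 2.56 on WT, 2.72 on Arp5 KO, 4.39 on Arp8 OE and 2.89 on Arp8 KO. STC2, a secreted glycoprotein, read 0.94, 0.94, 2.35 and 0.83. In both the array labelled Arp8 OE stood over the others. DDIT3, the factor CHOP, read -0.56, -1.20, 0.13 and -1.60, and CHAC1, which degrades glutathione, read 1.03, 0.47, 1.93 and 0.24. For these WT lay between Arp8 OE and Arp8 KO. ATF5 was lower by 1.04, CEBPB by 1.27 on each of 2 probes and PHGDH, the first enzyme of serine synthesis, by 1.26. With normexp background correction 1 CEBPB probe came to -0.71 and a second STC2 probe to -0.78, and with scaling to the median ATF5 came to -0.99. ASNS at -0.69 and TRIB3 at -0.49 and -0.50 stayed within 2-fold. Of the 34 probes, 7 lay beside a bright spot, and none of these was past 2-fold. The median of WT minus Arp8 OE over the list was -0.26. The aminoacyl-tRNA synthetases, many of which ATF4 also drives, had 0 of 25 probes past 2-fold and a median of 0.00.

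The element TGATGNAA, bound by ATF4 with a partner, was in 5 of 21 promoters of the ATF4 list (23.8%) and in 3.67% of all promoters. Of the 7 genes past 2-fold, CHAC1 held it. The 250 bases before its start (GRCh38.p14, chr15:40953221-40953470, plus strand) carry the match in capitals, on the reverse strand, beginning 209 bases before the start.
CHAC1: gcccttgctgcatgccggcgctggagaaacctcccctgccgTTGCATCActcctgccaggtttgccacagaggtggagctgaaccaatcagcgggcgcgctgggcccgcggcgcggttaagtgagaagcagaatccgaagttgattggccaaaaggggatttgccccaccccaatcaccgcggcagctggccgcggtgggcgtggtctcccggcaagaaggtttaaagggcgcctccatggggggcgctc
No match in the other promoters says only that these letters are not in the window searched.

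Targets of p53 were higher in Arp8 KO in part. Of 40 probes for 27 genes, 12 probes of 9 genes were more than 2-fold higher (30.0%), none was more than 2-fold lower, 34 were above 0, and the median was 0.71. PHLDA3, an inhibitor of AKT, read -0.74 on WT, -0.33 on Arp5 KO, 0.16 on Arp8 OE and 2.0 on Arp8 KO. CDKN1A, the cell cycle inhibitor p21, read 2.19, 2.41, 2.92 and 4.14. BBC3, the death-promoting protein PUMA, read 1.06, 2.03, 2.23 and 3.70, and a second probe was higher by 1.43. In all of these Arp8 KO was highest and WT lowest. SESN1, an antioxidant stress protein, was higher by 1.55 and 1.66 and ZMAT3, a zinc finger protein that binds RNA, by 1.18 and 1.60 on their probes. FAS, a death receptor, TIGAR, a phosphatase that slows glycolysis, XPC, a sensor of damaged DNA, and PLK3, a stress kinase, were higher by 1.13 to 1.18. MDM2, which degrades p53, was at 0.88 on 1 probe and at 0.03 on another, and FDXR, AEN and TRIAP1 were at 0.94 to 0.96. With normexp background correction FAS, TIGAR and XPC came to 0.77, 0.50 and 0.96 and 1 probe each of ZMAT3 and SESN1 to 0.66 and 0.74, which left 7 of the 12 probes past 2-fold. In the mean over probes BBC3 came to 0.91 and TIGAR to 0.89. Members that did not share the shift included TP53I3 at -0.47 and GDF15 at -0.06. Another BBC3 probe was at -0.18, and 1 BAX probe was at -0.23.

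On 9 of the 12 higher p53 probes, all well above background on every array, Arp8 KO was more than 2-fold over each other array, and Arp8 OE was more than 2-fold under each other array on none. Over the 39 probes measured on WT too, the median of Arp8 KO minus WT was 1.02 and that of WT minus Arp8 OE was -0.29. Of the 12 probes, 2 lay beside a bright spot, among them PHLDA3 on the Arp5 KO array. Of the BCL2 family, which controls cell death, BBC3 alone had probes past 2-fold (2 of 26 probes, median 0.05).

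**Figure D5:**
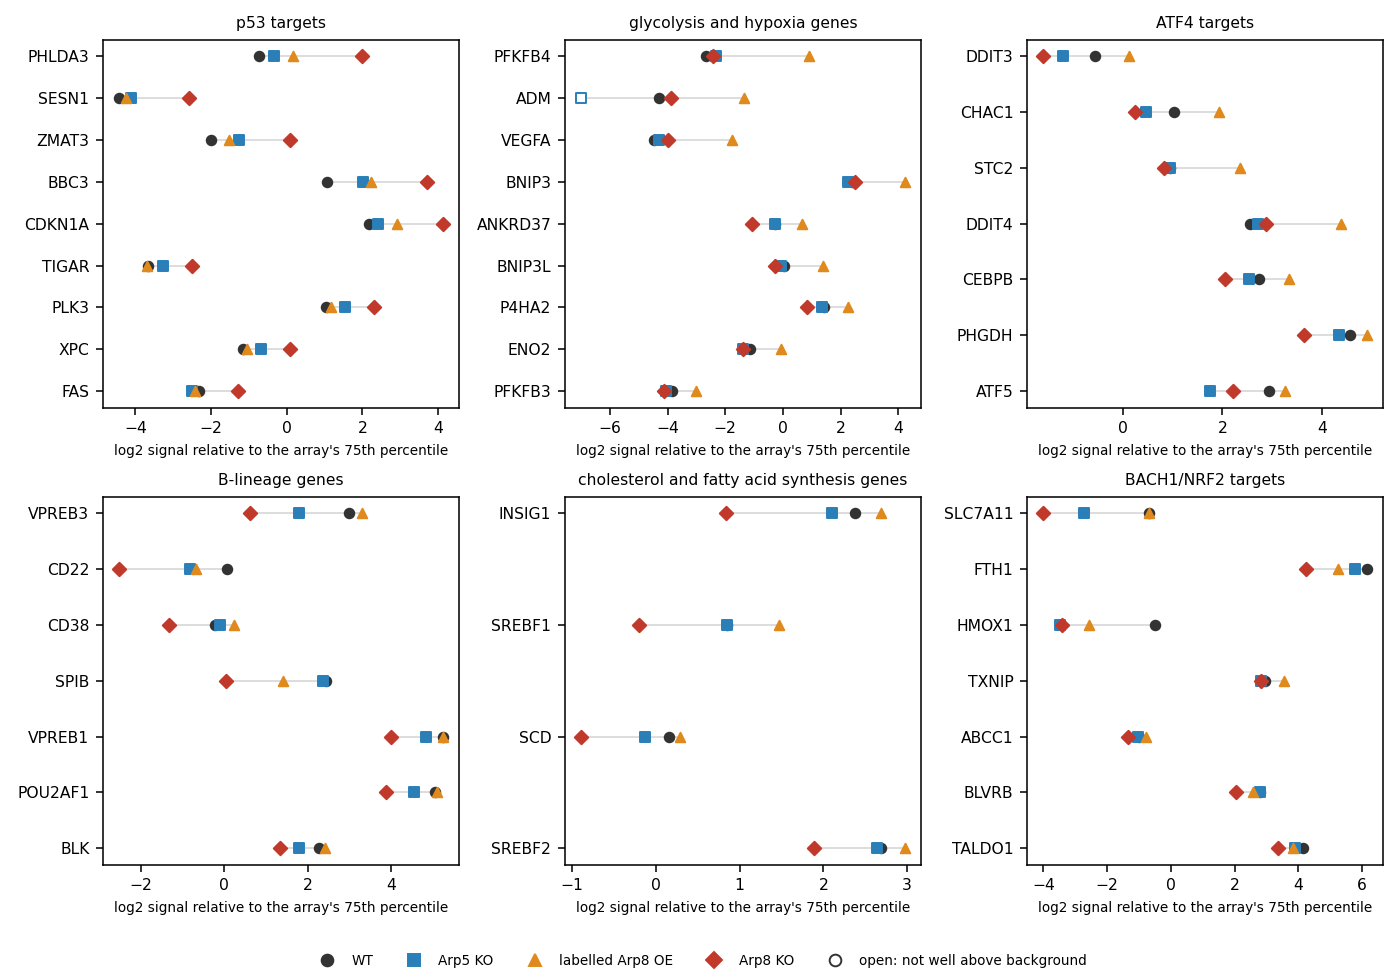
Levels on the 4 arrays (log2 signal relative to the 75th percentile) of members past 2-fold of 5 lists, and of the 7 largest differences among BACH1/NRF2 targets, with the probe of the largest difference for each gene. Arp8 KO lies to the right for the p53 targets, Arp8 OE lies to the right for the glycolysis and hypoxia genes, and Arp8 KO lies to the left for B-lineage and lipid synthesis genes.

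B-lineage genes were measured for 31 of 35 genes, and the precursor B-cell markers CD79A, CD79B, VPREB1, IGLL1, PAX5, EBF1, RAG1, RAG2, DNTT and MME were all well above background on both arrays. Of 44 probes, 7 were more than 2-fold lower in Arp8 KO (15.9%), none was more than 2-fold higher, and the median was -0.33. Beside VPREB3 these were CD22, CD38, VPREB1, POU2AF1, BLK and SPIB. CD22, an inhibitory coreceptor of B cells, read 0.06 on WT, -0.83 on Arp5 KO, -0.67 on Arp8 OE and -2.52 on Arp8 KO. CD38, an ectoenzyme of lymphocytes, read -0.23, -0.11, 0.24 and -1.32. VPREB1, part of the surrogate light chain, read 5.25, 4.83, 5.25 and 3.99. POU2AF1, a coactivator of B-cell transcription, read 5.06, 4.55, 5.10 and 3.89. In these 4 genes Arp8 KO was the lowest array. SPIB, a factor of the ETS family, read 2.43, 2.38, 1.41 and 0.03, so that Arp8 OE was also below WT, and its call was lost at -0.91 in the mean over its probes. The lineage factors PAX5 at -0.17 and EBF1 at -0.19 and -0.35 stayed within 2-fold, and DNTT, which adds bases at joints of antigen receptor genes, was at 0.75. In RNA from a whole culture, fewer cells with a transcript and less of it per cell cannot be told apart.

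Markers of other cells were mostly not measured. Among 7 T-cell markers with a probe 2 were well above background on each of both arrays, among 7 myeloid markers 3, among 7 erythroid markers 1 on Arp8 OE and none on Arp8 KO, and among 8 fibroblast and epithelial markers 2. The T-cell marker CD3E was well above background on Arp8 KO alone and CD8A on Arp8 OE alone. CD33, given above, was the marker past 2-fold, while CD14 was at 0.24 and MPO, ELANE and ITGAM were not well above background on either array. Of the 5 plasma cell markers, 3 were measured, with XBP1 at -0.35 and JCHAIN at -0.99.

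Outside the lineage list, MHC class II genes, which present antigen, had 0 of 18 probes past 2-fold and a median of -0.32. Interferon-stimulated genes had 2 of 35 probes more than 2-fold lower (5.71%) and a median of -0.35. MX1, an antiviral GTPase, read 1.19 on WT, -0.26 on Arp5 KO, 1.16 on Arp8 OE and -0.94 on Arp8 KO, and ISG20, an exonuclease, read 2.90, 1.48, 2.29 and 0.12. Both were low on both knockouts. Of the SOCS and PIM genes, which lie downstream of cytokine receptors, 3 of 17 probes were more than 2-fold higher (17.6%). CISH, like SOCS2 a target of STAT signalling, read -3.44, -2.19, -2.70 and -1.16 on its first probe and was at 0.85 on its second. SOCS1 went the other way, at -0.99 and -0.74. Among immediate early genes JUN, a subunit of AP-1, read -0.04, -0.26, -0.18 and 1.26, and DUSP2, a phosphatase of MAP kinases, was higher by 1.01 and 1.09, or by 0.86 and 0.82 with normexp background correction. EGR1 at -0.87 and DUSP6 at -0.75 were on the other side, and the median of the 21 probes was 0.13, or -0.02 when the probes of each gene were averaged.

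Targets of BACH1 and NRF2 were below 0 on 28 of 31 probes for 20 genes, with a median of -0.41, but SLC7A11 was the single one past 2-fold (3.23%). The 5 probes of FTH1, the heavy chain of ferritin, lay at -0.75 to -1.0. On 1 of them the levels were 6.50 on WT, 6.18 on Arp5 KO, 5.72 on Arp8 OE and 4.79 on Arp8 KO. The light chain FTL was at -0.36 to -0.39 and GCLM, a subunit of the enzyme that starts glutathione synthesis, at -0.44. NQO1 at -0.17, GCLC at 0.15 and TXNRD1 at 0.18 differed little. The medians over the list were 0.33 for WT minus Arp8 OE and -0.75 for Arp8 KO minus WT, so that the culture labelled Arp8 OE lay between. The core of the antioxidant response element, TGACNNNGC, was in 4 of 17 promoters of the list (23.5%) and in 13.6% of all promoters, and no promoter of SLC7A11 was at hand.

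Heat shock genes as a list stayed near the median of all probes, at -0.05, with 4 of 30 probes more than 2-fold lower (13.3%). The medians over the list were 0.32 for WT minus Arp8 OE and -0.38 for Arp8 KO minus WT. By these medians both cultures lay under WT. The probes more than 2-fold lower in Arp8 KO than in Arp8 OE are given next. They were 3 probes of HSPB1, a small chaperone, at -1.0 to -1.05, and 1 probe of HSPA1A, the inducible HSP70. The HSPA1A probe read -0.35 on WT, -3.01 on Arp5 KO, -0.96 on Arp8 OE and -2.96 on Arp8 KO, a difference of -2.0. The other probes of the gene were at -0.35 and -0.45. HSPA1A and HSPA1B are nearly identical, so the signal cannot be given to 1 of them. HSPA8, HSPD1 and DNAJA1 were at 0.00 to 0.42. With scaling to the median all 3 HSPB1 probes fell short of 2-fold, at -0.9485 to -0.9997, which left the HSPA1A probe. With normexp background correction 2 of them did, at -0.95 and -0.98, and in the mean over its probes HSPA1A came to -0.93.

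The heat shock element GAANNTTC, which reads the same on both strands, was in 7 of 17 promoters of the list (41.2%) and in 6.87% of all promoters, and both HSPA1A and HSPB1 held it. The 250 bases before the start of HSPA1A (GRCh38.p14, chr6:31815293-31815542, plus strand) are shown with the match, which begins 106 bases before the start, in capitals.
HSPA1A: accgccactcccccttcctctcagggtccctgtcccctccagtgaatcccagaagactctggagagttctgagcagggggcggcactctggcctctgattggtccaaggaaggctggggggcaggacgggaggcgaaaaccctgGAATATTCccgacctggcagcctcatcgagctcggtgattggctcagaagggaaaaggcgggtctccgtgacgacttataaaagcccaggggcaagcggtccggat

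Genes of lipid synthesis were lower in part. Of 40 probes of cholesterol and fatty acid synthesis genes, 7 were more than 2-fold lower (17.5%), with a median of -0.29. They included probes of the regulators SREBF1, SREBF2 and INSIG1 and of the desaturase SCD. INSIG1 read 2.37 on WT, 2.10 on Arp5 KO, 2.69 on Arp8 OE and 0.84 on Arp8 KO. SREBF1 read 4.40, 4.32, 4.98 and 3.42 on its first probe, whose spot on the WT array lay beside a bright spot, and was lower by 1.68 on its second. SREBF2 was lower by 1.09. SCD, at -1.18 on 1 probe and -0.89 on another, was at -0.79 in the mean over its probes. For INSIG1 and SREBF1 Arp8 KO was more than 2-fold under each other array on at least 1 probe.

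Cell cycle genes differed little one by one. Of 48 probes of DNA replication genes, 3 were more than 2-fold lower (6.25%), with a median of -0.16: MCM2, a subunit of the replicative helicase, GINS1 of the same machine and the licensing factor CDT1. MCM2 read 4.49 on WT, 2.87 on Arp5 KO, 4.59 on Arp8 OE and 3.0 on Arp8 KO, so that both knockouts lay low. CDT1 was at -0.97 and -1.01, and its call was lost at -0.95 with scaling to the median and at -0.99 in the mean over its probes. The called CDT1 probe and the GINS1 probe, at -1.10, lay beside a bright spot, and GINS1 came to -0.65 with normexp background correction. CCNE2, a cyclin of the entry into S phase, was at 0.88. Mitosis genes had 27 of 28 probes below 0 and a median of -0.38, but none past 2-fold, with CDC25C lowest at -0.93. Genes of double strand break repair, a process in which INO80 takes part, had a median of -0.01 and 0 of 33 probes past 2-fold.

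Of the INO80 complex itself all 15 subunits were measured, and 0 of 19 probes passed 2-fold. The 2 ACTR8 probes, at -0.54 and -0.67, were the lowest of the list. The 2 probes of INO80, the ATPase that gives the complex its name, were the highest. They read 2.06 and -0.94 on WT, 2.76 and -0.16 on Arp5 KO, 2.23 and -0.88 on Arp8 OE and 3.06 and 0.06 on Arp8 KO, which gave differences of 0.82 and 0.94. Both knockouts were above WT and Arp8 OE on both probes. RUVBL2, INO80D, YY1 and INO80B lay between -0.06 and 0.00. Housekeeping genes had a median of -0.07 and 0 of 33 probes past 2-fold.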

How the data were processed

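Total RNA of 4 Nalm-6 cultures, 1 per genotype, was labelled with Cy3 and hybridised to 1-colour Agilent arrays. The scanner files, deposited by the authors, give spot intensity (linear). Per the file headers they were made with version 10.10.1.1 of Agilent Feature Extraction. Its processed signal has the background subtracted and spatial trends removed on each array, with no normalization between arrays, and its flags mark outlier spots and spots well above background. The authors' series matrix equals this processed intensity times a constant of each array (1.99 to 2.29) and was an alternative. Every column was matched to a sample.

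Groups came from the genotype in the labels. Control spots and outlier spots (69 to 76 per array) were left out. Deposited processed signals were divided by the 75th percentile of their array, put on the log2 scale and averaged over the spots of a probe. A probe counted as well above background where at least 50% of its spots were. Where a probe missed this on 1 array, the lowest well-measured level of that array, or the probe's own level if higher, stood in for it, and the fold is a bound. Of 41000 probes, 27210 were given 1 symbol by matching their RefSeq accession to the GRCh38.p14 table, while the file headers name hg19. Genes were named as the 12 highest and lowest by difference and the 5 largest bounds each way among probes with 1 symbol and no adjacent spot (within 20 pixels) over 2-fold brighter on the same array alone, up to 10 genes each way with several probes all past 2-fold, members of the gene lists, and 5 genes that the study follows. Members and lists were chosen with earlier results of these data known. There was no test. Some list members are counted but not reported by name here.

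Alternatives were scaling to the median, quantile and cyclic loess normalization, normexp (offset 50) on the median spot signal and local background, the series matrix, other filters, gene means and a 4-fold threshold, run with R 4.3.3, limma 3.58.1 and Python 3.11.15. The scripts recovered known differences, all larger than 2-fold, in data simulated from a single array with small spot noise. This checks the code and not the spread between cultures. Promoter sequences are from RefSeq (GRCh38.p14).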

Additional observations from a re-analysis of the deposited data

How the results depend on the processing

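No paired analysis was possible because each group has 1 array. Of 1431 values recomputed under other settings, 1290 stayed within the technical SD (0.08) or, where they were counts, within 1.5 times. Another 140 moved by more, and 1 more changed sign, the median of the immediate early genes, which was -0.025 as gene means. Of the medians within that SD of 0, those of heat shock genes, aminoacyl-tRNA synthetases and double strand break repair genes turned to 0.0036, 0.05 and 0.04 with scaling to the median, and the last 2 to 0.02 and 0.01 with normexp. The counts of higher and lower probes were 75 and 243 with normexp, 398 and 916 with probes above background on at least 1 array, 1201 and 1996 with no filter, 111 and 297 as gene means and 15 and 60 past 4-fold. The lower side was the larger in each. With normexp the medians were 0.57 for p53 targets, -0.51 for glycolysis and hypoxia genes, -0.21 for MHC class II genes and 0.10 for SOCS and PIM genes, HMOX1 was at -0.47 and the first ACTR8 probe at -0.42. As gene means the medians were 0.57 for p53 targets, -0.31 for BACH1/NRF2 targets and -0.21 for MHC class II genes, and with no filter the p53 median was 0.60. With normexp and past 4-fold in turn, WT lay with Arp8 OE only on 48 and 8 higher and 93 and 14 lower probes, and with Arp8 KO only on 0 and 0 higher and 33 and 8 lower probes. Arp5 KO lay with Arp8 OE only on 29 and 3 higher and 43 and 4 lower probes, and with Arp8 KO only on 3 and 0 higher and 66 and 13 lower probes. Without probes beside a bright spot, WT and Arp5 KO lay with Arp8 KO only on 40 and 82 lower probes. This alternative was also applied, after the data were seen, to the probes with Arp8 OE over the 3 other arrays, which went from 74 to 27. Causes were not tested, except that fewer or more probes enter under another filter or threshold. Of 103 named probes past 2-fold, 24 fell under 2-fold in at least 1 alternative, most often with normexp (15 probes).

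The comparison rests on 1 array per culture on 1 slide, with labels that disagree on heme and with no excess of ACTR8 signal in the culture labelled Arp8 OE. Low signal limits it too, since most probes past 2-fold lie under the median level.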
